A study of Homo sapiens with 24 samples.

Results

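The 4 ERBB receptors (EGFR, ERBB2, ERBB3 and ERBB4) and 6 of their ligands (NRG1, AREG, EREG, HBEGF, TGFA and BTC) were followed across 3 ER+ human breast cancer lines. These 10 genes were taken by symbol from a table of normalized read counts for 18889 genes, and all 10 had a row. HCC1500, MDA-MB-175 and ZR-75-30 are established cell lines, each a single line labelled estrogen receptor positive. Every line was kept for 48 hours in medium with 5 mM glucose (LG, the control condition) or 25 mM glucose (HG, a model of hyperglycemia), with 4 cultures in each of the 6 groups and 24 in all. By the study's methods the cells of both arms were first conditioned in low glucose and then held without serum, so neither arm received growth factors from serum. The questions asked here were how the receptors and ligands differed between the lines at LG, and which of them changed with glucose in each line.

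ERBB receptors are tyrosine kinases of the cell surface that pair when a ligand binds and then signal through the RAS–ERK and PI3K–AKT routes. ERBB2 has no known ligand and is the favored partner of the others, and ERBB3 has a weak kinase and signals mainly as the partner of ERBB2. AREG and TGFA bind EGFR, EREG, HBEGF and BTC bind EGFR and ERBB4, and NRG1 (neuregulin) binds ERBB3 and ERBB4. The ligands are made as membrane-anchored precursors that the proteases ADAM17 and ADAM10 cut free. In breast carcinoma, amplification of ERBB2 defines a treatable subtype, and AREG is a well-known estrogen-responsive gene of the mammary gland.

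A value below is the normalized read count of a gene as deposited, which is a whole number of reads divided by a factor per culture. The depth was 9140024 to 17998819 reads per culture, and 3 reads, taken as the detection floor, were worth between 0.953 and 2.29. The luminal markers ESR1, GATA3, FOXA1, EPCAM, KRT8, KRT18 and KRT19 were at 255 or more in every culture, whereas CDH1 was between 49.0 and 62.0 in ZR-75-30 and at 5447 or more in the other lines. Among markers of leukocytes, endothelium, fibroblasts and basal cells, 6 of 10 had a row, and their summed value was between 116 and 259.8 against 30778 to 64553 for the luminal list. CD68 reached 43.9 in ZR-75-30 and VWF 55.6 in MDA-MB-175, COL1A1 ran from 67.1 to 256, and PDGFRB was at most 1.56. COL1A2 reached 21.3 and TP63 15.3, both in MDA-MB-175. PTPRC, PECAM1, KRT5 and KRT14 had no row, so their levels are not known here. TXNIP, a gene that responds to glucose, was higher at HG in all 3 lines, by 0.39, 0.76 and 1.02 on the log2 scale, in the order MDA-MB-175, then ZR-75-30, then HCC1500 (limma adjusted p = 1.08e-06, 3.61e-11 and 7.45e-05), with no overlap of LG and HG, and by 0.99 in HCC1500 without the culture described next. One culture stood apart. HCC1500 HG replicate 3 had 23.9% of genes more than 1 log2 unit from the other cultures of its group, against at most 1.74% in any other culture. It was kept in the tests, and the glucose changes in HCC1500 are given with and without it. HCC1500 LG cultures were also sequenced more deeply (13190982 to 17998819 reads) than HCC1500 HG cultures (9423472 to 12140912), so depth and glucose cannot be told apart in that line.

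EGFR, the receptor for AREG and TGFA, was expressed mainly in MDA-MB-175. Its values there were 189, 209, 187 and 179 in the LG cultures and 197, 195, 189 and 168 in the HG cultures. In ZR-75-30 they were 2.22, 2.27, 2.85 and 1.53 at LG and 1.56, 5.40, 6.37 and 1.37 at HG, which rest on 15 and 28 reads over each group. In HCC1500 only 2 of the LG cultures held a read, at 0.318 and 0.383, and all 4 HG cultures were at 0. The MDA-MB-175 cultures lay far above those of both other lines at both glucose levels. At LG the difference between MDA-MB-175 and ZR-75-30 was 5.91 ± 0.19 on the log2(value + 1) scale (SE, n = 4 and 4, limma adjusted p = 5.76e-13). Against HCC1500 the pooled reads gave a ratio of 1017 at LG (95% exact interval for counting error 281 to 8408), and at HG the level was at least 84.1-fold higher than the largest 3-read floor of the HCC1500 cultures. ZR-75-30 exceeded HCC1500 at LG by a read ratio of 12.1 (2.82 to 109, 15 against 2 reads), a difference that passed the test (limma adjusted p = 4.63e-06) but rests on single reads in HCC1500. With glucose, EGFR in MDA-MB-175 differed by -0.03 ± 0.07 (SE, limma adjusted p = 0.806), less than the spread between cultures, and in ZR-75-30 by 0.37 ± 0.40 (adjusted p = 0.487). In HCC1500 it was too low to be tested.

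ERBB2 was expressed in all 3 lines and differed widely between them. Its values at LG were 4966, 4681, 4857 and 4185 in MDA-MB-175 and 68889, 70873, 72886 and 63593 in ZR-75-30. HCC1500 had 1446, 1562, 1461 and 1536. No culture of one line came near the range of another. ZR-75-30 is known as a line with an amplified ERBB2 gene, and ERBB2 there took 0.880% to 0.995% of the summed values of a LG culture and ranked 5 among the 18889 genes. In MDA-MB-175 the share was 0.0695% to 0.0788% and in HCC1500 at LG 0.0256% to 0.0273%. On the mean, ZR-75-30 was 14.8-fold above MDA-MB-175 (MDA-MB-175 minus ZR-75-30 -3.89 ± 0.05 on the log2 scale, SE, limma adjusted p = 4.72e-17) and 46.0-fold above HCC1500 (5.52 ± 0.05, adjusted p = 5.37e-19). MDA-MB-175 was 3.11-fold above HCC1500 (1.63 ± 0.05, adjusted p = 4.16e-13). Of the 10321 exon bases annotated for ERBB2 (chr17:37844167-37886679, plus strand, GRCh37), 715 lie over exons of the opposite-strand neighbors MIEN1 and PGAP3, and the strand setting of the counting is not given in the sources used here.

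In ZR-75-30, ERBB2 was lower at HG. The ZR-75-30 HG cultures had 58270.4, 61636, 62557 and 55500.5, each below the lowest LG culture. That fall was -0.21 ± 0.06 on the log2 scale (SE, n = 4 and 4, limma adjusted p = 0.00400, and 0.0542 in a fit on all 24 cultures), and the HG share was 0.763% to 0.826%, rank 6. In HCC1500 the HG values were 1114, 1073, 1493 and 1121, of which replicate 3 alone fell inside the LG range. Replicate 3 also had a larger summed value, 7319780 against 5559390 to 5604080 in the rest of its group. As a share of the summed values, ERBB2 was 0.0192% to 0.0204% in the HCC1500 HG cultures, replicate 3 included, against 0.0256% to 0.0273% at LG. The ERBB2 change in HCC1500 was -0.34 ± 0.11 with all 8 cultures, which did not pass correction (limma adjusted p = 0.0686), and -0.44 ± 0.03 without replicate 3 (adjusted p = 1.91e-09). With all cultures kept it also passed with median-of-ratios scaling (-0.28, adjusted p = 0.0232), the same total per culture (-0.41, 0.00247), edgeR (-0.30, 0.0185), DESeq2 (-0.28, 0.000248) and the fit on all 24 cultures (-0.34, 0.00285). MDA-MB-175 HG cultures had 4681, 4605, 4591 and 4638, all within the range at LG, and the change there was -0.01 ± 0.05 (adjusted p = 0.902). Whether the change differed between the lines was not called with all 24 cultures (limma F test, adjusted p = 0.0935) and was called without replicate 3 (adjusted p = 6.66e-05). It was also called with all cultures under median-of-ratios scaling (0.0186), the same total (0.000966), edgeR (0.0215) and DESeq2 (0.00111).

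ERBB3, the kinase-impaired partner of ERBB2, was the most even of the receptors across lines at LG. The LG values were 2582, 2621, 2604 and 2626 in MDA-MB-175 and 3532, 3667, 3579 and 3498 in ZR-75-30. HCC1500 had 2421, 2438, 2350.3 and 2388. The 3 lines did not overlap, but their means spanned only 1.49-fold, against 46.0-fold for ERBB2. ZR-75-30 was above HCC1500 by 0.57 ± 0.03 on the log2 scale (SE, limma adjusted p = 1.15e-11), and MDA-MB-175 minus ZR-75-30 was -0.45 ± 0.03 (adjusted p = 3.11e-10). MDA-MB-175 was above HCC1500 by 0.12 ± 0.03 (adjusted p = 0.000436), a difference that turned to -0.0009 when every culture was set to the same total and was not called in a fit on all 24 cultures (adjusted p = 0.180).

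With glucose, ERBB3 moved in opposite directions in ZR-75-30 and HCC1500. In HCC1500 the HG cultures had 1438, 1441, 984 and 1418, against 2350.3 as the lowest LG value. The fall was -0.88 ± 0.13 on the log2 scale with all cultures (SE, n = 4 and 4, limma adjusted p = 0.00212) and -0.74 ± 0.03 without replicate 3 (adjusted p = 7.07e-14), so that the HG level was 0.544 or 0.597 of that at LG. In ZR-75-30 the HG cultures had 4011, 3917, 3924 and 3804, each above the highest LG culture, a rise of 0.13 ± 0.03 (adjusted p = 0.00313), whose call was lost in a fit on all 24 cultures (adjusted p = 0.245). MDA-MB-175 HG cultures had 2497, 2546, 2484 and 2485, all below the lowest LG culture, by -0.06 ± 0.03, which did not pass correction (adjusted p = 0.233). The difference of the glucose change between lines was called for ERBB3 (limma F test, adjusted p = 9.50e-07 with all cultures, 3.75e-15 without replicate 3), the smallest p among the 10 genes in both fits.

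ERBB4, which binds NRG1, BTC, HBEGF and EREG, was found mainly in HCC1500. Its LG values in that line were 192, 211, 184 and 196, against 1.61, 4.02, 1.14 and 2.03 in MDA-MB-175 and 5.54, 9.10, 3.99 and 3.05 in ZR-75-30. HCC1500 lay above the other lines, with -6.02 ± 0.29 for MDA-MB-175 minus HCC1500 and -5.02 ± 0.29 for ZR-75-30 minus HCC1500 on the log2 scale (SE, limma adjusted p = 3.59e-11 and 2.65e-10). MDA-MB-175 and ZR-75-30 overlapped, with 2 to 6 and 4 to 16 reads per culture, although their difference of -0.99 ± 0.29 passed the test (adjusted p = 0.00573). At HG the HCC1500 cultures had 195, 169, 98.0 and 163, of which replicate 3 was the lowest. The change was -0.37 ± 0.20 with all cultures (limma adjusted p = 0.233) and -0.16 ± 0.07 without replicate 3 (adjusted p = 0.0562), and neither passed. ERBB4 in the MDA-MB-175 HG cultures was 0.832, 1.70, 1.95 and 1.58, and in those of ZR-75-30 it was 7.81, 5.40, 7.22 and 8.22. Both overlapped LG, and the changes of -0.29 ± 0.36 and 0.42 ± 0.31 were not called (adjusted p = 0.604 and 0.296).

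**Figure D1:**
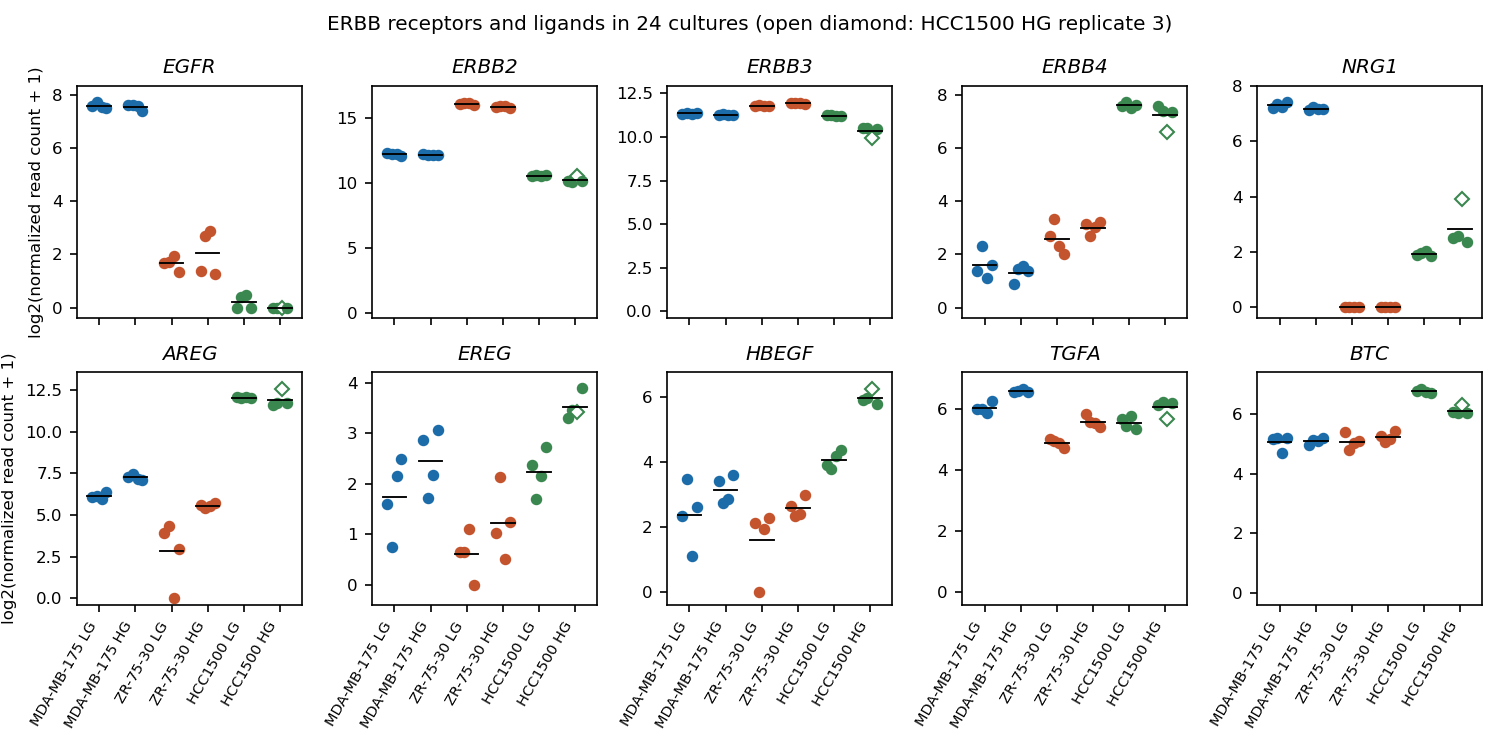
Each panel gives 1 of the 10 genes as log2(normalized read count + 1), with 1 point per culture, a line at the mean of each group, and the open diamond for HCC1500 HG replicate 3. ERBB2 is highest in the ZR-75-30 cultures, EGFR and NRG1 in MDA-MB-175, and AREG, ERBB4 and BTC in HCC1500.

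Set on a scale per kilobase of exon, the leading member at LG differed between the lines. The length was every exon base annotated to a gene over all its transcripts, such as 21372 for NRG1 and 1642 for AREG. The transcripts expressed here are not known and may be shorter, so ranks of genes within a line depend on that length. In ZR-75-30 ERBB2 led at 6691 ± 387 per kb (SD, n = 4), followed by ERBB3 at 305 ± 6.25. In MDA-MB-175 ERBB2 was at 453 ± 33.5 and ERBB3 at 223 ± 1.71 per kb, followed by AREG at 42.7 ± 5.79. In HCC1500 the ligand AREG came first at 2606 ± 34.7 per kb, above ERBB3 at 205 ± 3.33 and ERBB2 at 145 ± 5.49.

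AREG (amphiregulin) differed between lines by a wide margin. HCC1500 LG cultures had 4342, 4250.5, 4306 and 4214, MDA-MB-175 LG cultures 66.6, 70.4, 60.4 and 82.9, and ZR-75-30 LG cultures 14.4, 19.3, 0 and 6.87. The ZR-75-30 culture at 0 needs its neighbor beside it. The older annotation lists a near-identical gene, AREGB, and in ZR-75-30 LG replicate 3 all 16 reads of the pair were counted to AREGB and none to AREG, while in replicate 4 the split was 9 to AREG and 10 to AREGB. In replicates 1 and 2 all 26 and 34 reads were counted to AREG. The annotated transcripts of AREG (chr4:75310853-75320722, GRCh37) and AREGB (chr4:75480629-75490486), both on the plus strand, are 1234 and 1239 bases long and 6 edits apart, and 91.2% of the 100-base windows of AREG also occur in AREGB. The only substitution between them is G240A, counted from 1 at the 5′ end of the AREG transcript, in the coding sequence at chr4:75311092. It is shown with 20 bases on either side, with the differing base in capitals.
AREG: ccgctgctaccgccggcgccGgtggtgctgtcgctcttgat
AREGB: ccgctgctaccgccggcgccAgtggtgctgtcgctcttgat
Since reads away from this base and the few inserted bases fit both genes, AREG was also tested as the sum of the pair, an alternative chosen after seeing the data. Summed, the ZR-75-30 LG cultures ranged from 9.11 to 19.3.

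HCC1500 had far more AREG at LG, with -5.92 ± 0.65 on the log2 scale for MDA-MB-175 minus HCC1500 and -9.25 ± 0.65 for ZR-75-30 minus HCC1500 (SE, limma adjusted p = 6.56e-07 and 3.27e-09). With AREGB added the differences were -5.92 ± 0.15 and -8.17 ± 0.15. MDA-MB-175 exceeded ZR-75-30 by 3.32 ± 0.65 (adjusted p = 0.000285) for AREG alone and by 2.25 ± 0.15 (adjusted p = 3.97e-09) for the sum, so the order of the 3 lines was the same either way and no culture overlapped between lines.

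AREG rose with glucose in MDA-MB-175 and ZR-75-30. The MDA-MB-175 HG cultures had 157, 173, 144 and 136, all above the highest LG culture at 82.9, a rise of 1.12 ± 0.10 on the log2 scale (SE, n = 4 and 4, limma adjusted p = 8.60e-07) or 2.17-fold. In a fit on all 24 cultures it was not called (1.12 ± 0.54, adjusted p = 0.222), and the SE of that fit pools the spread of all 3 lines. The ZR-75-30 HG cultures had 47.4, 42.5, 45.0 and 51.4, all above the highest LG culture at 19.3. The rise there was 2.75 ± 0.60 for AREG alone (adjusted p = 0.000971) and 1.68 ± 0.20 for the sum with AREGB (adjusted p = 1.50e-06), so the size of the change, not its direction, depended on how the pair was counted. In HCC1500 the HG values were 3160.4, 3448, 6082 and 3350.2. Replicate 3 lay above every LG culture and the other 3 below every LG culture, and the change was -0.15 ± 0.19 with all cultures (adjusted p = 0.648) and -0.37 ± 0.03 without replicate 3 (adjusted p = 3.42e-09). The change differed between lines for AREG alone (limma F test, adjusted p = 0.0169, and 0.00464 without replicate 3) and for the sum (adjusted p = 2.76e-05), though not for AREG alone with a pseudocount of 0.1 (adjusted p = 0.101).

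**Figure D2:**
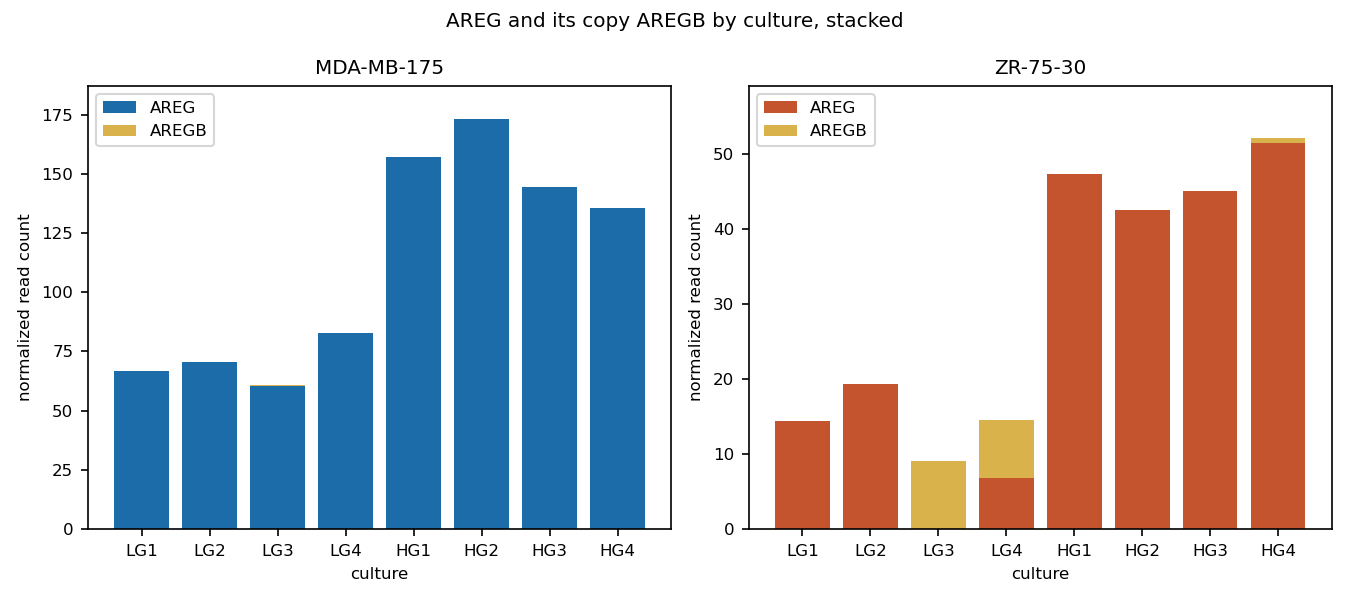
Bars show the normalized read count of AREG in each culture of MDA-MB-175 and ZR-75-30, with that of its near-identical copy AREGB stacked on top. In ZR-75-30 at LG the AREG part falls to 0 in replicate 3, where AREGB takes all 16 reads, while the stacked height at HG stays above every LG culture in both lines.

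TGFA, another EGFR ligand, rose with glucose in MDA-MB-175 and in ZR-75-30, and it did so in HCC1500 when replicate 3 was left out. The MDA-MB-175 cultures had 62.6, 63.0, 57.5 and 74.8 at LG and 93.2, 93.7, 99.5 and 93.1 at HG, with no overlap, a rise of 0.56 ± 0.10 on the log2 scale (SE, limma adjusted p = 0.000446). The ZR-75-30 cultures had 31.0, 29.6, 28.5 and 25.2 at LG and 56.2, 46.6, 45.0 and 41.1 at HG, again without overlap, a rise of 0.70 ± 0.15 (adjusted p = 0.000663). The HCC1500 cultures had 49.4, 42.6, 52.9 and 39.2 at LG and 69.0, 73.1, 49.8 and 72.0 at HG. Only replicate 3 of the HG cultures lay inside the LG range, and the difference of 0.50 ± 0.17 did not pass correction with it (adjusted p = 0.0628), while the 0.63 ± 0.12 without it did (adjusted p = 0.000138). With it kept, TGFA also passed with DESeq2 (0.60, adjusted p = 0.0269) and in a fit on all 24 cultures (0.50, 0.00399). A difference of the TGFA change between lines was not called (limma F test, adjusted p = 0.681, and 0.720 without replicate 3), which does not show that the changes were equal. Between lines at LG, MDA-MB-175 was 1.14 ± 0.12 above ZR-75-30 and 0.48 ± 0.12 above HCC1500 (adjusted p = 6.05e-07 and 0.00213), and ZR-75-30 minus HCC1500 was -0.66 ± 0.12 (adjusted p = 0.000140).

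HBEGF (heparin-binding EGF-like growth factor), a ligand of EGFR and ERBB4, was called higher with glucose in HCC1500. The values there were 14.1, 12.7, 17.3 and 19.8 at LG and 59.6, 61.7, 75.7 and 54.9 at HG, from 37 to 46 and 101 to 124 reads per culture. All HG cultures lay above all LG cultures, and the rise was 1.92 ± 0.18 on the log2 scale with all cultures (SE, limma adjusted p = 0.000200) and 1.83 ± 0.16 without replicate 3 (adjusted p = 2.36e-08), or 3.80-fold and 3.57-fold. In MDA-MB-175 the values were 4.01, 10.1, 1.14 and 5.09 at LG and 9.57, 5.68, 6.25 and 11.0 at HG, with overlap and no call (0.77 ± 0.40, adjusted p = 0.180, or 1.14 and 0.0395 without LG replicate 2). In ZR-75-30 they were 3.32, 0, 2.85 and 3.82 at LG and 5.21, 4.05, 4.25 and 6.85 at HG. These groups did not overlap but held at most 10 reads per culture, and the difference of 1.0 ± 0.44 did not pass correction (adjusted p = 0.0699, or 0.0374 without LG replicate 4). The difference of the change between lines was not called (limma F test, adjusted p = 0.290, and 0.317 without HCC1500 HG replicate 3), but it was called with a pseudocount of 5 (0.00274) and with DESeq2 (0.0185). At LG, HCC1500 was above both, with -2.48 ± 0.51 for ZR-75-30 minus HCC1500 and -1.69 ± 0.51 for MDA-MB-175 minus HCC1500 (adjusted p = 0.000356 and 0.00662, the latter 0.0968 with a pseudocount of 0.1), while MDA-MB-175 minus ZR-75-30 was 0.79 ± 0.51 and not called (adjusted p = 0.174, or 0.0309 without MDA-MB-175 LG replicate 3).

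EREG (epiregulin) was low in all lines. HCC1500 had 4.18, 2.22, 3.45 and 5.60 at LG and 8.85, 9.95, 9.65 and 13.8 at HG, from 7 to 13 and 13 to 30 reads per culture, with no overlap. That rise was 1.28 ± 0.26 on the log2 scale (SE, limma adjusted p = 0.00996) and 1.31 ± 0.30 without replicate 3 (adjusted p = 0.000950). In MDA-MB-175 the values ran from 0.670 to 4.58 at LG and from 2.27 to 7.36 at HG, and in ZR-75-30 from 0 to 1.14 and from 0.425 to 3.38. Those groups overlapped, the levels lay near the 3-read floor, and the differences of 0.71 ± 0.40 and 0.63 ± 0.43 were not called (adjusted p = 0.221 and 0.253). EREG did not separate MDA-MB-175 from HCC1500 at LG (-0.50 ± 0.36, adjusted p = 0.219), whereas ZR-75-30 was below both, with 1.14 ± 0.36 for MDA-MB-175 minus ZR-75-30 and -1.64 ± 0.36 for ZR-75-30 minus HCC1500 (adjusted p = 0.0108 and 0.000728), and overlapped MDA-MB-175.

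BTC (betacellulin) fell with glucose in HCC1500. The values were 111, 115, 106 and 103 at LG and 66.7, 65.7, 78.7 and 65.5 at HG, without overlap. The fall was -0.65 ± 0.10 on the log2 scale (SE, limma adjusted p = 0.00325) and -0.71 ± 0.08 without replicate 3 (adjusted p = 4.51e-07). In MDA-MB-175 BTC ran from 25.1 to 36.2 at LG and from 30.4 to 36.3 at HG, and in ZR-75-30 from 26.7 to 41.0 and from 32.4 to 42.5. The groups overlapped in both lines, with differences of 0.04 ± 0.15 and 0.15 ± 0.16 (adjusted p = 0.880 and 0.479). Its change differed between lines (limma F test, adjusted p = 0.00335, and 0.000766 without replicate 3). At LG the MDA-MB-175 and ZR-75-30 levels differed by -0.01 ± 0.14 (adjusted p = 0.967), and HCC1500 was above them, the differences to it being -1.70 ± 0.14 and -1.69 ± 0.14 (adjusted p = 2.37e-08 and 2.30e-08).

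NRG1, the neuregulin that binds ERBB3 and ERBB4, was a gene of MDA-MB-175 in these cultures. Its values there were 146, 162, 150.3 and 169 at LG and 139, 152, 143 and 145 at HG. All 8 ZR-75-30 cultures were at 0, and HCC1500 had 2.66, 2.86, 3.07 and 2.58 at LG, from 6 to 9 reads per culture. The MDA-MB-175 level was at least 68.5-fold above the largest 3-read floor of the ZR-75-30 cultures at LG and at least 70.3-fold above it at HG, and 56.2-fold above HCC1500 at LG (log2 difference 5.38 ± 0.16, limma adjusted p = 1.07e-13). MDA-MB-175 is known for a fusion of TENM4 to NRG1 that yields a secreted neuregulin. TENM4 had 435, 466, 488 and 422 in its LG cultures and 352, 347, 350.2 and 353 in its HG cultures, against 46.5 to 63.2 in HCC1500 at LG and 0 in every ZR-75-30 culture, and values per gene do not tell fused from unfused transcripts.

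With glucose, NRG1 in MDA-MB-175 differed by -0.12 ± 0.07 on the log2 scale (limma adjusted p = 0.252), with overlapping groups, whereas TENM4 fell by 0.37 on that scale (SE 0.05, adjusted p = 8.09e-05) without overlap. In HCC1500 the HG values of NRG1 were 4.72, 4.97, 14.1 and 4.15, all above the LG range but from 8 to 19 reads per culture. The difference there was 0.92 ± 0.35 with all cultures (adjusted p = 0.0970) and 0.57 ± 0.30 without replicate 3 (adjusted p = 0.114), and neither passed correction. It passed with edgeR (1.25, adjusted p = 0.0470), DESeq2 (1.29, 0.0348) and the fit on all 24 cultures (0.92, 0.00240), all with replicate 3 kept. A change of NRG1 in ZR-75-30 could not be measured, since every culture there was at 0.

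For the 4 ligands called higher with glucose in at least 1 line by the limma test with all 8 cultures, RefSeq promoters of build GRCh38.p14 are shown, 250 bases before to 50 after a start site, 5′ to 3′ on the gene's strand. They are shown so that the ligands called higher can be read side by side, although AREG was lower in HCC1500 without replicate 3. A cyclic AMP response element (CRE, TGACGTCA), an AP-1 site (TGANTCA) and an E-box (CACGTG) were searched on both strands, with matches in capitals. RefSeq listed promoters for 8 of the 10 genes. For TGFA it listed another window besides the one shown (chr2:70553397-70553696), which also held none of the 3 motifs.
AREG, chr4:74444886-74445185, plus strand: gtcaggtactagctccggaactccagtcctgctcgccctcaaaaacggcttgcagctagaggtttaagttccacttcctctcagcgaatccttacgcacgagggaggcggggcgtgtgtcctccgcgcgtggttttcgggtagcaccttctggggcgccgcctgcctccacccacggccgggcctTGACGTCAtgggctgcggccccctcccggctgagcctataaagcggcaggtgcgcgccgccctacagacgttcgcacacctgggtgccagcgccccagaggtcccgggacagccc
TGFA, chr2:70553777-70554076, minus strand: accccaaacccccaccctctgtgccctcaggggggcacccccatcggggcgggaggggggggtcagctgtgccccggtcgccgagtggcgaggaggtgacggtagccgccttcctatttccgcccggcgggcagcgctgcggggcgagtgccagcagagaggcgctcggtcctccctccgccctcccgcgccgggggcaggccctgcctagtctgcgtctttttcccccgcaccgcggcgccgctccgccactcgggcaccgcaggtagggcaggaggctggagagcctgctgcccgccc
HBEGF, chr5:140346554-140346853, minus strand: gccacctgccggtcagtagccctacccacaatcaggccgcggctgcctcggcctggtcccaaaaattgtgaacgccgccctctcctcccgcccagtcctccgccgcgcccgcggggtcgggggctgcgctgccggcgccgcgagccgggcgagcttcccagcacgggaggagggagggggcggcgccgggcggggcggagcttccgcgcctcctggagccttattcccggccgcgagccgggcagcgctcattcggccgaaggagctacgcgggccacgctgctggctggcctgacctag
EREG, chr4:74364895-74365194, plus strand: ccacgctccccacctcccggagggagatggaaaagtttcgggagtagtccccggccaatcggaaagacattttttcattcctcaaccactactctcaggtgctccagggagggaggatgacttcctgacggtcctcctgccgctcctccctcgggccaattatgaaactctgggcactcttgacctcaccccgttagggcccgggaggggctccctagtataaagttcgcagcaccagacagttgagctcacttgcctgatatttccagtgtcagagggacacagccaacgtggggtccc
The AREG window held 1 CRE, whose first base lies at -65 from the start site, and the others shown held none of the 3 motifs. Among members not shown, 1 EGFR window held 2 AP-1 matches and the ERBB2 window held 1. The other EGFR window and those of BTC and ERBB4 held none. Over 35116 promoters of this length, 1.85% held the CRE, 7.71% the AP-1 letters and 7.26% the E-box. A match describes letters in a window and is no evidence of binding in these cells.

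Counted over the members, 8 of 10 differed between MDA-MB-175 and ZR-75-30 at LG (limma adjusted p under 0.05), where 73.1% of all genes tested did, and 6 differed by at least 1 log2 unit, where 33.1% of all genes did. Between MDA-MB-175 and HCC1500 the counts were 9, beside 80.6% of all genes, and 7 at 1 log2 unit, beside 42.7%. Between ZR-75-30 and HCC1500 all 10 differed, beside 80.4%, and 8 at 1 log2 unit, beside 45.1%. Most genes tested thus differed between these lines, and the shares of the members that differed at all were close to those of all genes. Setting every culture to the same total moved the median difference of all genes from 0.18 to 0.38 between MDA-MB-175 and ZR-75-30 and from -0.25 to -0.56 between ZR-75-30 and HCC1500, and small differences such as those of ERBB3 are relative to that shift. The HG cultures, which the LG fit did not use, gave 9, 10 and 10 members for the same pairs, beside 61.0%, 69.4% and 70.4% of all genes. Without HCC1500 HG replicate 3 these were again 9, 10 and 10, beside 75.8%, 78.9% and 78.9%. All 10 members had a difference of the same sign at LG and HG in each pair. HBEGF passed between MDA-MB-175 and ZR-75-30 at HG only narrowly (0.56 on the log2 scale, limma adjusted p = 0.0466), and the call was lost under 15 alternatives. The ERBB3 gap between ZR-75-30 and HCC1500 was 1.58 at HG, or 1.45 without replicate 3, against 0.57 at LG.

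**Figure D3:**
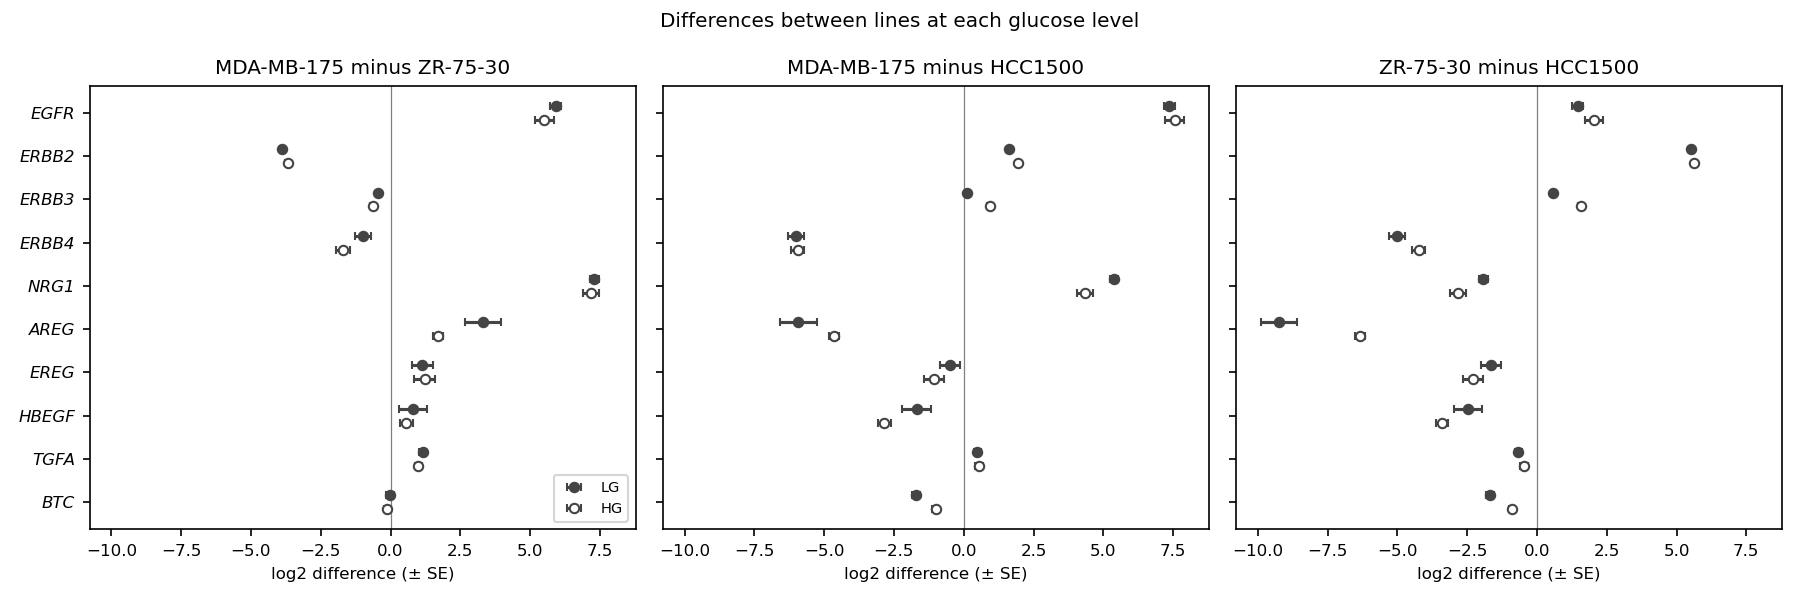
Each panel gives, for 1 pair of lines, the log2 difference of the 10 genes with its SE, filled at LG and open at HG. EGFR, ERBB2, AREG and NRG1 lie more than 1 log2 unit from 0 in every panel at both glucose levels, and BTC lies near 0 between MDA-MB-175 and ZR-75-30.

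With glucose, 2 of 10 members were called in MDA-MB-175 (AREG and TGFA, both higher), beside 25.7% of all genes tested, of which 11.9% were higher and 13.7% lower. In ZR-75-30 4 of 9 tested were called (AREG, TGFA and ERBB3 higher, ERBB2 lower), beside 46.0% of all genes, with 23.4% higher and 22.7% lower. In HCC1500 4 of 9 tested were called (HBEGF and EREG higher, ERBB3 and BTC lower), beside 20.5%, with 7.46% higher and 13.0% lower. Without replicate 3 7 of 9 were called, with ERBB2 and AREG lower and TGFA higher in addition, beside 58.5% of all genes, with 20.9% higher and 37.7% lower. The shares called were near those of all genes in MDA-MB-175 and ZR-75-30. NRG1 in ZR-75-30 and EGFR in HCC1500 did not pass the filter on low values. LG and HG cultures did not overlap for 3 of 10 members in MDA-MB-175 (26.6% of all genes), for 5 of 9 in ZR-75-30 (42.0%), for 5 of 9 in HCC1500 (32.4%) and for 8 of 9 there without replicate 3 (58.1%). The median log2 change of the members tested was 0.01, 0.42 and -0.15 in the 3 lines, beside -0.02, 0.01 and -0.06 for all genes tested, and in HCC1500 without replicate 3 it was -0.16 beside -0.12. The 0.42 in ZR-75-30 is the change of ERBB4, which had 4 to 17 reads per culture, overlapping groups and no call (limma adjusted p = 0.296).

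**Figure D4:**
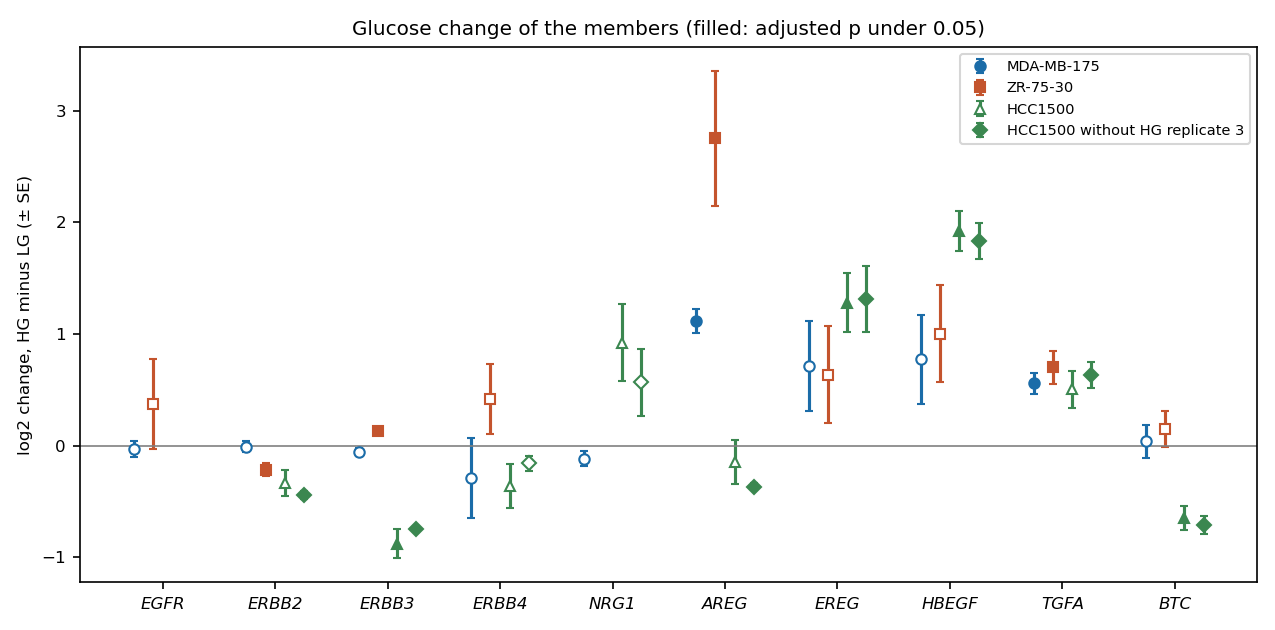
Points give the log2 change from LG to HG of each gene in each line with its SE, filled where the limma adjusted p is under 0.05, and for HCC1500 also without HG replicate 3. TGFA, HBEGF and EREG are above 0 in all 3 lines, though none of them is called in every line with all cultures. AREG is above 0 in MDA-MB-175 and ZR-75-30 only, and ERBB3 is lowest in HCC1500.

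The glucose change itself was called as differing between lines for ERBB3, BTC and AREG, beside 29.3% of all genes, and without replicate 3 also for ERBB2, beside 48.6%. NRG1 was called as well (limma F test, adjusted p = 0.0237, and 0.0174 without replicate 3). Its 8 ZR-75-30 values at 0 leave no change to compare there, and its HCC1500 values rest on 6 to 19 reads per culture. The ligands EREG, HBEGF and TGFA and the receptors EGFR and ERBB4 were not called in either fit.

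Other genes of the pathway were read from lists of ligands, proteases, attenuators, adaptors and kinases, and ERK output genes, of which at most 2 per list and line are named. Of 5 further ERBB ligands (EGF, EPGN, NRG2, NRG3 and NRG4), 2 rose and 0 fell among the 5 tested in MDA-MB-175, 2 rose and 1 fell among 4 in ZR-75-30, and 1 rose and 1 fell among 5 in HCC1500, with or without replicate 3. Over all genes 11.9% rose and 13.7% fell in MDA-MB-175, 23.4% and 22.7% in ZR-75-30, 7.46% and 13.0% in HCC1500, and 20.9% and 37.7% there without replicate 3. EPGN (epigen, an EGFR ligand beside EREG and AREG on chromosome 4) rose from 5.31 ± 1.66 to 26.2 ± 4.0 in MDA-MB-175 (SD, n = 4), by 2.14 ± 0.23 on the log2 scale (SE, limma adjusted p = 3.92e-06). It also rose in HCC1500, from 8.78 ± 0.992 to 16.1 ± 3.27 (adjusted p = 0.0196, and 0.00310 without replicate 3). EGF, the founding EGFR ligand, was highest in ZR-75-30 and rose there from 654 ± 20.9 to 909 ± 14.5 (0.47 ± 0.04, adjusted p = 1.29e-08). NRG4, a ligand of ERBB4, fell in ZR-75-30 from 38.5 ± 8.85 to 22.6 ± 3.74 (adjusted p = 0.00303), and NRG3 fell in HCC1500 from 3.49 ± 0.793 to 0.733 ± 0.786 (adjusted p = 0.0182, and 0.00838 without replicate 3).

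Of the 4 genes for shedding the ligands (ADAM10, ADAM17, RHBDF1 and RHBDF2), 1 rose in MDA-MB-175, 2 rose in ZR-75-30 and 1 rose in HCC1500, and 0 fell in any line (without replicate 3, 2 rose and 1 fell in HCC1500). Counting both directions, 25.7%, 46.0% and 20.5% of all genes were called in these lines, so the shares of this short list were near them. ADAM17, the main sheddase of AREG and TGFA, rose from 123 ± 8.55 to 161 ± 8.79 in MDA-MB-175 (SD, n = 4, limma adjusted p = 0.00113). In ZR-75-30 the risers were ADAM10, from 715 ± 22.8 to 942 ± 24.6 (adjusted p = 1.51e-07), and RHBDF1, a carrier of ADAM17, from 318 ± 15.9 to 452 ± 26.1 (adjusted p = 4.22e-07). RHBDF2, the other carrier of ADAM17, rose in HCC1500 from 249.9 ± 9.50 to 342 ± 37.9 (adjusted p = 0.0124, and 3.51e-06 without replicate 3).

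Among 11 attenuators of the receptors, 4 rose and 2 fell in MDA-MB-175, 4 rose and 2 fell in ZR-75-30, and 2 rose and 0 fell in HCC1500 (6 and 2 without replicate 3). The shares of all genes that rose and fell were 11.9% and 13.7%, 23.4% and 22.7%, 7.46% and 13.0%, and 20.9% and 37.7%, in that order. CBL, the ubiquitin ligase that removes activated EGFR, rose in MDA-MB-175 from 113 ± 6.02 to 176 ± 17.2 and in ZR-75-30 from 131 ± 18.6 to 239 ± 24.1 (SD, n = 4, limma adjusted p = 2.19e-05 and 6.29e-07). ERRFI1, an inhibitor of the EGFR kinase, rose in MDA-MB-175 from 299 ± 15.4 to 459 ± 11.3 (adjusted p = 2.43e-07), and SH3KBP1, a CBL partner, rose in ZR-75-30 from 2.5 ± 1.05 to 6.89 ± 1.64 (adjusted p = 0.00478). In HCC1500 LRIG1, which lowers ERBB receptor levels, rose from 774 ± 22.7 to 968 ± 80.5 (adjusted p = 0.0271, and 1.49e-08 without replicate 3) and SOCS5, of a family of signaling suppressors, from 106 ± 11.7 to 156 ± 10.8 (adjusted p = 0.00842, and 4.44e-06 without replicate 3).

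Among 28 adaptors and kinases, 7 rose and 4 fell in MDA-MB-175, 10 rose and 5 fell in ZR-75-30, and 0 rose and 3 fell in HCC1500 (9 and 13 without replicate 3). Of all genes, 25.7%, 46.0%, 20.5% and, without replicate 3, 58.5% were called in either direction. GAB2, a docking protein of the PI3K route, went up in MDA-MB-175 from 295 ± 15.9 to 450.2 ± 15.4 and in ZR-75-30 from 89.4 ± 9.32 to 290.0 ± 11.7 (SD, n = 4, limma adjusted p = 3.85e-07 and 4.89e-12). GRB7, an adaptor that binds ERBB2 and lies beside it on chromosome 17 (chr17:37894180-37903544), rose in ZR-75-30 from 3888 ± 191 to 5880.3 ± 304, by 0.60 ± 0.04 on the log2 scale (SE, adjusted p = 2.59e-09), where ERBB2 fell by 0.21. It also rose in MDA-MB-175, from 208 ± 30.6 to 285 ± 7.41 (adjusted p = 0.000891). In HCC1500 the kinase AKT1 fell from 1996 ± 95.7 to 1245 ± 203 and the phospholipase PLCG1 from 1513 ± 71.7 to 1069.7 ± 38.2 (adjusted p = 0.00366 and 0.00189, and 1.82e-12 and 1.88e-09 without replicate 3).

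Among 14 feedback and output genes of ERK, 5 rose and 1 fell in MDA-MB-175, 4 rose and 5 fell in ZR-75-30, and 5 rose and 0 fell among 13 tested in HCC1500 (7 and 3 without replicate 3), beside 25.7%, 46.0%, 20.5% and 58.5% of all genes called in either direction. DUSP5, a phosphatase of ERK, rose in MDA-MB-175 from 199 ± 17.3 to 387 ± 12.7 and in ZR-75-30 from 856 ± 22.9 to 1995 ± 84.8 (SD, n = 4, limma adjusted p = 1.98e-08 and 5.52e-14). EGR1, an immediate early transcription factor, moved in opposite directions, falling in ZR-75-30 from 1915 ± 63.6 to 826 ± 37.1 (adjusted p = 1.02e-13) and rising in HCC1500 from 10.5 ± 1.35 to 18.1 ± 3.0 (adjusted p = 0.0221, and 0.00300 without replicate 3). FOSL1, a component of AP-1, rose in MDA-MB-175 from 2.62 ± 1.70 to 6.04 ± 1.90 (adjusted p = 0.0462). IER3, an early response gene, rose in HCC1500 from 710.2 ± 20.3 to 2032 ± 816 (adjusted p = 0.00247), by 1.44 on the log2 scale with replicate 3 and 1.19 without it (adjusted p = 2.96e-15).

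**Figure D5:**
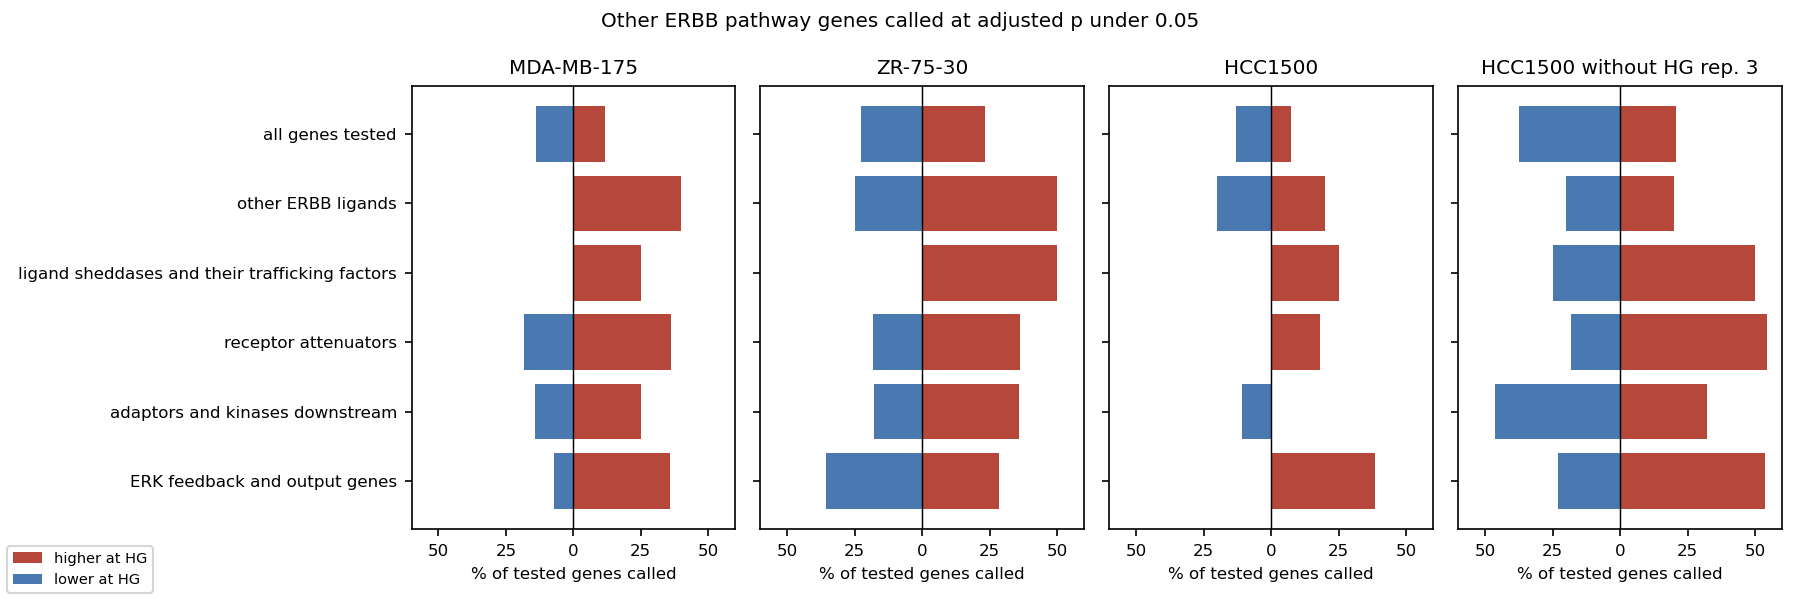
Bars give, for each list and line, the percent of tested genes called higher (red, right) or lower (blue, left) at HG at a limma adjusted p under 0.05, with all genes tested in the top row. In HCC1500 none of the 28 adaptors and kinases is called higher with all cultures, and 9 are without HG replicate 3.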

How the data were processed

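RNA from 24 cultures of 3 lines was sequenced by the authors. The deposited signal values are normalized read counts per gene. For the tumors, and by reference the xenografts, the study names a stranded library kit, Trimmomatic, TopHat and hg19 with Ensembl annotation. It also names DESeq2 for its tests and edgeR for CPM values with TMM factors. For the cell lines it gives the RNA kit and the sequencer, and it does not restate the library kit or the aligner. The submitters' processing notes name hg38 and edgeR. The deposited values summed to 5559390 to 7594840 per culture, which is not the scale of CPM, so the factor behind them is not known. The counter and its strand setting are not given in the sources used here. In every culture, 100% of the deposited values were whole multiples of 1 read (tolerance 0.02), which gave the depth. In 9 lines a split symbol shifted the columns, and those values were counted back from the last column. Intervals and floors cover counting error only.

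Values were tested as log2(value + 1) with limma 3.58.1 in R 4.3.3, with a trended prior and Benjamini-Hochberg adjustment over all genes tested, so fold changes of low genes are understated. Genes needed a value of 0.5 in at least 4 cultures. Each glucose test used the 8 cultures of its line, each test between lines the 12 at 1 glucose level, and the test of differing changes all 24. Pseudocounts, filters, scalings, the prior, the samples fitted, a replicate block, each culture left out, edgeR 4.0.16 and DESeq2 1.42.0 were tried as alternatives. The code was tested on simulated data. The sources do not say that the 4 cultures of a group came from separate passages, so p-values measure the spread between these cultures, which may be technical. Replicates differed by more than sampling noise (chi-square per degree of freedom at least 1.83).

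The members and lists were chosen with earlier results of these data known. All members are named, as are AREGB, TENM4 and TXNIP, and from each pathway list at most 2 genes per line, those with the largest change among genes called without overlap of LG and HG. Gene positions came from GENCODE 44 lifted to GRCh37, which matched 96.3% of the gene IDs, and promoters from RefSeq on GRCh38.p14.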

Additional observations from a re-analysis of the deposited data

Results flagged for a closer look

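Among 57 groups of 4 cultures examined for the 10 genes, 7 held a culture far from the other 3 by Dixon's test, where chance gives about 1 in 20. Of these, 5 were HCC1500 HG replicate 3, which had ERBB2 at 1493, ERBB3 at 984, NRG1 at 14.1, AREG at 6082 and BTC at 78.7. It was the highest of its group for ERBB2, NRG1, AREG and BTC and the lowest for ERBB3. These are deposited values, and its summed value was 7319780, against 5559390 to 5604080 in the rest of its group. As a share of the summed values, ERBB2 was 0.0192% to 0.0204% in that group, this culture included. The other 2 of the 7 were TGFA at 99.5 in MDA-MB-175 HG replicate 3, the highest of its group, and BTC at 25.1 in MDA-MB-175 LG replicate 3, the lowest of its group.

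Limma's F test over all 24 cultures called the change with glucose as differing between the 3 lines for 4 genes. The adjusted p was 9.50e-07 for ERBB3, 0.00335 for BTC, 0.0169 for AREG and 0.0237 for NRG1. ERBB3 changed by -0.06, 0.13 and -0.88 on the log2 scale in MDA-MB-175, then ZR-75-30, then HCC1500, BTC by 0.04, 0.15 and -0.65, and AREG by 1.12, 2.75 and -0.15. NRG1 changed by -0.12 in MDA-MB-175 and 0.92 in HCC1500 and was at 0 in every ZR-75-30 culture, which leaves no change to measure there. Its p thus rests on HCC1500, with 6 to 19 reads per culture. The change in HCC1500 alone was not called (limma adjusted p = 0.0970).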

How the results depend on the processing

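The counts of members called moved by over 1.5 times in few settings. Fitting all 24 cultures together gave 1 with glucose for MDA-MB-175 (AREG lost), 2 for ZR-75-30 (ERBB2 and ERBB3 lost) and 7 for HCC1500, and DESeq2, or leaving out HCC1500 HG replicate 3, gave 7 in HCC1500. Leaving out each culture in turn gave 2 to 3, 4 to 5 and 4 to 7 with glucose, 8 to 9, 9 and 10 between lines at LG, 8 to 9, 9 to 10 and 10 at HG, and 4 to 5 for differing changes. The F test of a differing AREG change had an adjusted p of 0.101 with a pseudocount of 0.1. Values near 0 turned in sign. In MDA-MB-175 with glucose, EGFR was 0.0025 with edgeR and -0.060 to 0.021 with a culture left out (above 0 without LG replicate 2 or HG replicate 4). ERBB2 there was 0.013 with median-of-ratios scaling and edgeR, 0.010 with DESeq2, and -0.062 to 0.020 with a culture left out (above 0 without LG replicate 1 or 3), and BTC was -0.084 (without LG replicate 3) to 0.087. With the same total per culture, BTC between MDA-MB-175 and ZR-75-30 was 0.22 at LG and 0.13 at HG, and ERBB3 between MDA-MB-175 and HCC1500 was -0.00088 at LG. That BTC difference at LG was -0.11 to 0.11 with a culture left out (above 0 without MDA-MB-175 LG replicate 3 or ZR-75-30 LG replicate 1). The cause was not tested.

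Same-numbered cultures deviated together at most weakly (mean correlation 0.036, 0.012 and 0.024, beside -0.012, -0.004 and -0.008 for cultures of other numbers). This cannot show whether the numbers pair the cultures. With a replicate block the members called with glucose were 2, 5 and 4, with HBEGF added in ZR-75-30, and those between lines 8, 9 and 10 at LG and 8, 10 and 10 at HG. Differing changes were called for 4, NRG1 included. Over all genes the block gave 1964 calls in HCC1500 against 3350. The fit on all cultures gave 2011, 5142 and 5842 with glucose against 4368, 7290 and 3350, edgeR gave 4402, 7397 and 3576, and DESeq2 3929, 6585 and 4432. In HCC1500, 1221 genes were higher and 2129 lower as deposited, and 1724 and 1799 with median-of-ratios scaling. Depth limits EGFR in ZR-75-30 and HCC1500, HBEGF and ERBB4 outside HCC1500, NRG1 outside MDA-MB-175, and EREG in every line. These held at most 30 reads per culture, many of them near the 3-read floor.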

Other observations

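Genes with a pattern over the 6 groups close to that of a member were found by the root mean square difference of centered log2(value + 1) group means, among 13310 genes with a mean of at least 10. For ERBB2 these were FOXA3 (0.32) and TMEM92 (0.33), for ERBB3 HNRNPA1P7 (0.089) and ERGIC1 (0.10), and for EGFR WASF3 (0.099) and FAM126A (0.18). NRG1 was nearest to ARMCX2 (0.46) and TUSC3 (0.47), and AREG to AMPH (0.71) and MSN (0.76). The likeness is over 6 group means and says nothing of shared function or control.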
